A study of Homo sapiens with 4 samples.

Results

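The genes described here are 10 rows of a count table of 35767 rows from SAS, an established line of human tongue squamous carcinoma cells. They are the CCN family genes CYR61 (now CCN1), CTGF (now CCN2) and NOV (now CCN3), the ankyrin repeat gene ANKRD1, the feedback genes AMOTL2 and LATS2, the co-activator genes YAP1 and WWTR1, and the transcription factor genes TEAD1 and TEAD4. They were picked by symbol, and all 10 were found and tested. The series held 2 libraries of cells given a control siRNA (siControl, genotype label WT) and 2 of cells given an siRNA against NAT10 (siNAT10, an RNA acetyltransferase). The genotype label names a NAT10 knockdown for siNAT10 replicate 1 and a NAT11 knockdown for siNAT10 replicate 2. The sources used here do not give siRNA sequences, doses or times. The labels call the libraries biological replicates without naming separate cultures, so errors and p-values cover library-to-library spread only, and that spread may be technical.

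YAP1 and WWTR1 (the latter also known as TAZ) encode related co-activators that carry no DNA-binding domain of their own and act on genes mainly through the TEAD factors. The Hippo kinases, in which MST1 and MST2 (STK4, STK3) activate LATS1 and LATS2, phosphorylate YAP and TAZ, which are then held in the cytoplasm by 14-3-3 proteins or degraded. CYR61, CTGF and ANKRD1 are the genes most often measured as a readout of YAP/TAZ-TEAD activity, and AMOTL2 and LATS2 are targets whose products restrain YAP. In squamous epithelium and its carcinomas YAP is known for supporting growth of basal-like cells.

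TEAD factors bind the motif GGAATG, which on the other strand is read as CATTCC, so the promoter windows of the members were searched for it. Windows from 250 bases before to 50 bases after a RefSeq transcript start (GRCh38.p14) were found for 6 of the 10 members: CTGF, ANKRD1, AMOTL2, LATS2, YAP1 and WWTR1. CYR61, NOV, TEAD1 and TEAD4 were not matched. The windows of CTGF and ANKRD1, the members with the largest differences for which a window was found, and those of their smaller-changing fellow targets AMOTL2 and LATS2 are printed 5′ to 3′ on the strand of the gene, with each match on either strand in capitals. They are chr6:131951323-131951622 (minus strand) for CTGF, chr10:90921038-90921337 (minus strand) for ANKRD1, chr3:134374398-134374697 (minus strand, the second of 2 listed starts) for AMOTL2, and chr13:21061537-21061836 (minus strand) for LATS2.
CTGF: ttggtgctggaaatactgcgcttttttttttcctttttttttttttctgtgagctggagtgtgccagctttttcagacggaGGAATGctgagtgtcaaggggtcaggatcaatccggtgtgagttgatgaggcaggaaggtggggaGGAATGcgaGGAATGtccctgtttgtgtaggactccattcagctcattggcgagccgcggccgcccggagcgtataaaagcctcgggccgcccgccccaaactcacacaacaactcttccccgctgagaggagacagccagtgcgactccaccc
ANKRD1: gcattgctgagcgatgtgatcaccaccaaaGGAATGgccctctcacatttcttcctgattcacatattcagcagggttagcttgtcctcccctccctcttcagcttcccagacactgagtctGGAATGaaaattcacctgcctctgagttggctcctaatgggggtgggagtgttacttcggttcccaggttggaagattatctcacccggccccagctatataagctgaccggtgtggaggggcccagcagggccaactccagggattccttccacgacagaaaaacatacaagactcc
AMOTL2: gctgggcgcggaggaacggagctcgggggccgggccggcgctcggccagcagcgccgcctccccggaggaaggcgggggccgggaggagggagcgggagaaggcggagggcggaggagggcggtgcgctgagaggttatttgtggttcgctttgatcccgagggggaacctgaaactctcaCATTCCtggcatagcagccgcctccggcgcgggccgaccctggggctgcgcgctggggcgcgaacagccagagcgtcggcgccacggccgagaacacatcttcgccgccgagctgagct
LATS2: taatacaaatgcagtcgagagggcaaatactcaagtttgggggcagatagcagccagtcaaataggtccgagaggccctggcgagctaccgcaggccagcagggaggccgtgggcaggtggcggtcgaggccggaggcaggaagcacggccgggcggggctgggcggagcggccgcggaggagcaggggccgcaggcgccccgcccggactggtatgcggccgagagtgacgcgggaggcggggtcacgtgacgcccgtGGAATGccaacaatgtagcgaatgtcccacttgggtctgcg

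The CTGF window held 3 matches, at offsets of -169, -104 and -95 bases from the first base of the transcript. The ANKRD1 window held 2, at offsets of -220 and -128, counted from the RefSeq start, which lies 189 bases inside the 5′ end of the deposited gene row. AMOTL2 had 1 match in CATTCC orientation at -69 from its second start and none at its first. That second start lies 1032 bases inside the 5′ end of the deposited AMOTL2 row. LATS2 had 1 match at an offset of 9, and YAP1 had 1 at -162. The letters were not in either window of WWTR1, whose starts lie 33441 and 78689 bases inside its deposited row. Of all 35116 promoter windows in the table, 14% held at least 1 match, 1.37% at least 2 and 0.128% (45 windows) at least 3. Counted per gene over any start, 5 of the 6 matched members held the motif, against 16.7% of 27305 genes. So did 9 of 17 matched genes of a signature of 22 YAP/TAZ targets. That list includes CTGF, ANKRD1, AMOTL2 and LATS2, which are counted in both shares. Of the other longer lists, the share was 50% (5 of 10) for other reported targets and 41.2% (7 of 17) for SRF and cytoskeletal targets. It was 33.3% for CCN receptors, 25.8% for Hippo kinases, scaffolds and upstream regulators, and 9.09% for retention and degradation genes of the pathway. For AP-1 a single loose pattern was searched, TGANTCA, in which N is any base, so a match need not be a full AP-1 site. It was found once, in ANKRD1 at -195, where the letters are TGATTCA (7.71% of all windows held the pattern). The CArG box bound by SRF was in none of the members' windows (1.29% of all windows). A match describes these letters and does not show binding. The map of motif positions shows these offsets side by side.

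**Figure D1:**
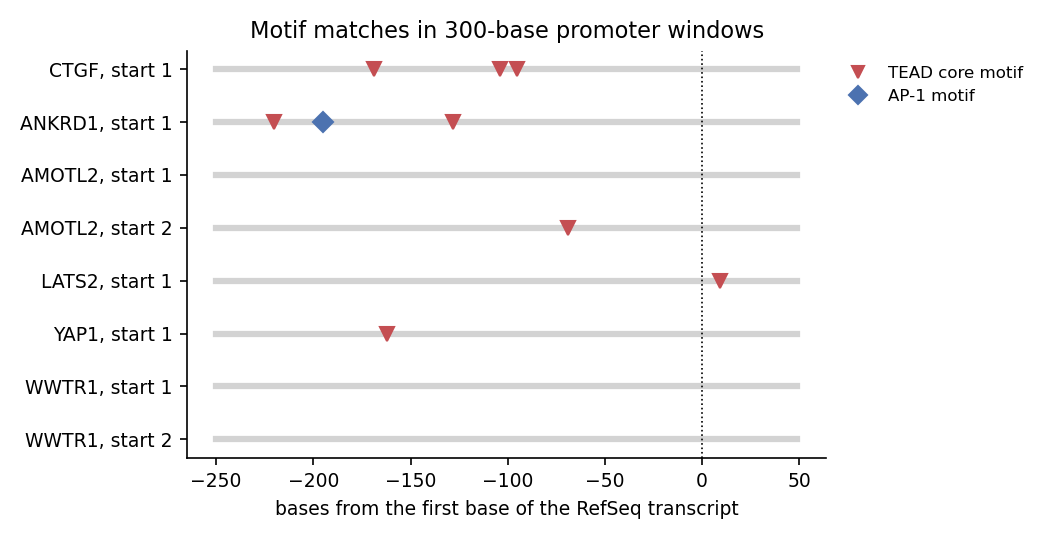
Positions of TEAD core motif matches (red triangles) and matches of the loose AP-1 pattern TGANTCA (blue diamonds) in the 300-base promoter windows of 6 genes. Offsets are in bases from the first base of the RefSeq transcript (dotted line). CTGF has 3 TEAD core matches between -169 and -95, ANKRD1 has 2, and both WWTR1 windows have none.

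Total counts ranged from 30794757 to 36341785 per library. The level of NAT10 mRNA was no lower with the siNAT10 label (240.2 and 231 counts per 1000000 library counts, CPM, in siControl replicates 1 and 2, 253 and 248 CPM in siNAT10 replicates 1 and 2; log2 fold change 0.09 ± 0.06 SE, edgeR quasi-likelihood adjusted p = 0.293). NAA40, which the label NAT11 names, was at 22.1 and 18.8 CPM against 18.6 and 18.2 CPM (edgeR adjusted p = 0.255, and 0.0491 with libraries scaled by their totals). Directions are therefore those of siNAT10-labelled libraries against siControl. Across all genes 40.4% of 20098 tested rows passed the threshold (edgeR adjusted p under 0.05), 19.7% higher and 20.7% lower, and the median log2 fold change was -0.0079. Scaling by library totals moved that median to -0.12 and the share of calls that were higher from 48.7% to 32.4%. Among markers of squamous epithelium, KRT17 was at 821 and 865 CPM in siControl, and at 542 and 586 CPM in the siNAT10-labelled libraries, whereas KRT5, TP63 and DSG3 were under 1 CPM in all 4 libraries and CDH1 was at 0.78 to 1.29 CPM. Named after their values were seen, KRT14 fell from 4.04 and 4.12 to 1.96 and 1.86 CPM (edgeR adjusted p = 0.000259). EPCAM fell from 7.40 and 8.34 to 3.81 and 4.13 CPM (edgeR adjusted p = 4.04e-05). The 7 squamous markers measured summed to 835 and 880 CPM in siControl and to 550.0 and 593 CPM in the siNAT10-labelled libraries, nearly all of it KRT17. The part of these markers in the members' values was not tested. Such bulk values cannot tell fewer cells of a kind from less RNA per cell.

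The members were proposed from this same comparison, with the high values of CYR61, CTGF and ANKRD1 in view. Their differences are therefore given as a description, with a standard error (SE) and without a test. By the fit over all rows 9 of the 10 were past the threshold, 7 higher and 2 lower, beside 40.4% of all rows, and 9 of the 10 had groups without overlapping CPM, beside 69.5% of all rows. At least 2-fold higher with a call were 3 of the 10, beside 2.74% of all rows. Nothing is read from these counts, since the same contrast chose the genes.

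The secreted matricellular proteins CYR61 and CTGF bind integrins and heparan sulfate and shape adhesion and matrix. CYR61 (chromosome 1, 85580761 to 85583962, plus strand) was at 20.9 and 20.2 CPM in siControl replicates 1 and 2 and at 146 and 156 CPM in siNAT10 replicates 1 and 2. Both siNAT10-labelled libraries lay far above both siControl libraries, with a mean 7.35 times as high and a log2 difference of 2.88 ± 0.08. It stood 26th from the highest among all tested rows.

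CTGF (chromosome 6, 131948176 to 131951373, minus strand) was at 6.51 and 6.78 CPM in siControl and at 51.7 and 49.1 CPM in the siNAT10-labelled libraries. The groups did not overlap, and the mean was 7.58 times as high, a log2 difference of 2.92 ± 0.10. Its exons overlap those of the opposite-strand row RP11-69I8.3, which had 9 and 5 counts in siControl and 51 and 56 in the siNAT10-labelled libraries, where CTGF itself had 248, 252, 1790 and 1451. The strand setting of the counting was not given, so reads of this pair cannot be told apart. Per kb of exon length, CYR61 was 3.06, 2.84, 2.69 and 3.03 times the level of CTGF in the 4 libraries in that order. The ratio of the 2 genes thus overlapped between the groups while both levels differed more than 7-fold.

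NOV, the CCN relative that is often described as opposing the action of CTGF, lay the other way. NOV (chromosome 8, 119416306 to 119424353, plus strand) was at 6.11 and 4.41 CPM in siControl and at 3.12 and 4.33 CPM in the siNAT10-labelled libraries, from counts of 233, 164, 108 and 128. The groups were separated by less than 0.1 CPM at their closest, between siControl replicate 2 and siNAT10 replicate 2, and the log2 difference was -0.51 ± 0.20. It was -0.26 without siControl replicate 1 and -0.28 without siNAT10 replicate 1, so its size rests on those libraries. Per kb, CYR61 was 3.72 and 4.98 times the level of NOV in siControl and 50.9 and 39.2 times in the siNAT10-labelled libraries.

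Of the remaining CCN genes, WISP2 (CCN5), which unlike its relatives lacks the C-terminal cystine knot domain, was abundant and rose. It was at 209 CPM in both siControl libraries and at 283 and 306 CPM in the siNAT10-labelled libraries, with a log2 fold change of 0.49 ± 0.07 (5.77e-06 as the edgeR adjusted p). WISP1 (0, 2, 0 and 0 counts) and WISP3 (0, 0, 2 and 4 counts) were too low to be tested. Of the family, CYR61, CTGF and WISP2 were higher and NOV was lower, beside 19.7% of all tested rows called higher and 20.7% called lower. WISP1 and WISP3 were at or near the limit of detection (3 counts, or 0.0825 to 0.0974 CPM). Nothing is read from these directions as a family, since CYR61, CTGF and NOV were proposed from the same contrast.

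ANKRD1 encodes a cardiac and skeletal muscle ankyrin repeat protein that is found in the nucleus and in the sarcomere, and in epithelial cells it is a standard YAP target. It had the largest difference of the 10 members. ANKRD1 (chromosome 10, 90912096 to 90921276, minus strand) was at 1.52 and 1.51 CPM in siControl, from 58 and 56 counts, and at 17.2 and 18.8 CPM in the siNAT10-labelled libraries, from 597 and 556 counts. The mean was 11.9 times as high, a log2 difference of 3.57 ± 0.15, and 7th from the highest among all tested rows.

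Its muscle relative ANKRD2 also rose, from 0.42 and 0.16 CPM to 2.02 and 1.76 CPM (log2 fold change 2.68 ± 0.40, edgeR adjusted p = 2.6e-05), from counts of 16, 6, 70 and 52. The value was 3.52 without siControl replicate 1 and 2.16 without siControl replicate 2. ANKRD23, the third member of that family, was at 21.4 and 22.9 CPM against 21.3 and 20.2 CPM (log2 fold change -0.09 ± 0.09, edgeR adjusted p = 0.456). ANKRD39 and CNNM3 share exon positions with ANKRD23. The summed level of 6 muscle markers was 14.9 and 17.4 CPM in siControl and 12.9 and 11.7 CPM in the siNAT10-labelled libraries. Most of the siControl sum was DES, so the sum mainly follows DES, and the other markers did not share a direction. DES fell from 12.3 and 13.4 to 6.15 and 6.09 CPM (edgeR adjusted p = 1.53e-06), and MYH7 and MYL2 were under 1 CPM in all libraries. TNNT2, cardiac troponin T, which overlaps LAD1, rose from 0.31 and 0.38 to 4.48 and 3.93 CPM (edgeR adjusted p = 9.27e-09). TNNI3, cardiac troponin I, which overlaps CTD-2587H24.4, fell from 1.92 and 3.10 to 0.92 and 0.88 CPM (edgeR adjusted p = 0.000641), and ACTC1, cardiac actin, which overlaps RP11-814P5.1, rose from 0.21 and 0.48 to 1.21 and 0.61 CPM (edgeR adjusted p = 0.0291). The ACTC1 call was lost without siControl replicate 1 (0.92 on the log2 scale, edgeR adjusted p = 0.184) or siNAT10 replicate 1 (0.81, edgeR adjusted p = 0.393) and with DESeq2 (adjusted p = 0.176), and its value was 2.12 without siControl replicate 2. These muscle genes are named after their values were seen, and the part of other muscle genes in the ANKRD1 value was not tested. Summed fibroblast markers, another usual source of CCN transcripts, were at 34.3 and 37.7 CPM in siControl and at 31.8 and 30.7 CPM in the siNAT10-labelled libraries, with COL1A2, COL3A1, PDGFRA, DCN and LUM under 1 CPM throughout. Of the other 2, named after their values were seen, COL1A1 fell from 27.0 and 28.8 to 21.5 and 20.1 CPM (edgeR adjusted p = 0.00102), and PDGFRB rose from 6.40 and 7.62 to 9.07 and 9.21 CPM (edgeR adjusted p = 0.0313). The PDGFRB call was lost without siControl replicate 1 (adjusted p = 0.229), siNAT10 replicate 1 (0.072) or siNAT10 replicate 2 (0.0974), with DESeq2 (0.168) and with scaling by library totals (0.118). Summed endothelial markers were at 2.57 and 3.23 CPM against 3.49 and 3.86 CPM. Among them, named after their values were seen, VWF rose from 0.18 and 0.054 to 1.13 and 0.88 CPM (log2 fold change 3.04 ± 0.56, edgeR adjusted p = 0.000231) and PECAM1 fell from 0.92 and 1.24 to 0.29 and 0.14 CPM (-2.29 ± 0.49, edgeR adjusted p = 0.000826). VWF was at 4.13 without siControl replicate 1 and 2.43 without siControl replicate 2, and PECAM1 at -2.95 without siNAT10 replicate 1. Summed blood markers, nearly all of it CD68, were at 46.3 and 48.3 CPM against 51.9 and 52.4 CPM, and the part of these cell types in the members' values was not tested.

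**Figure D2:**
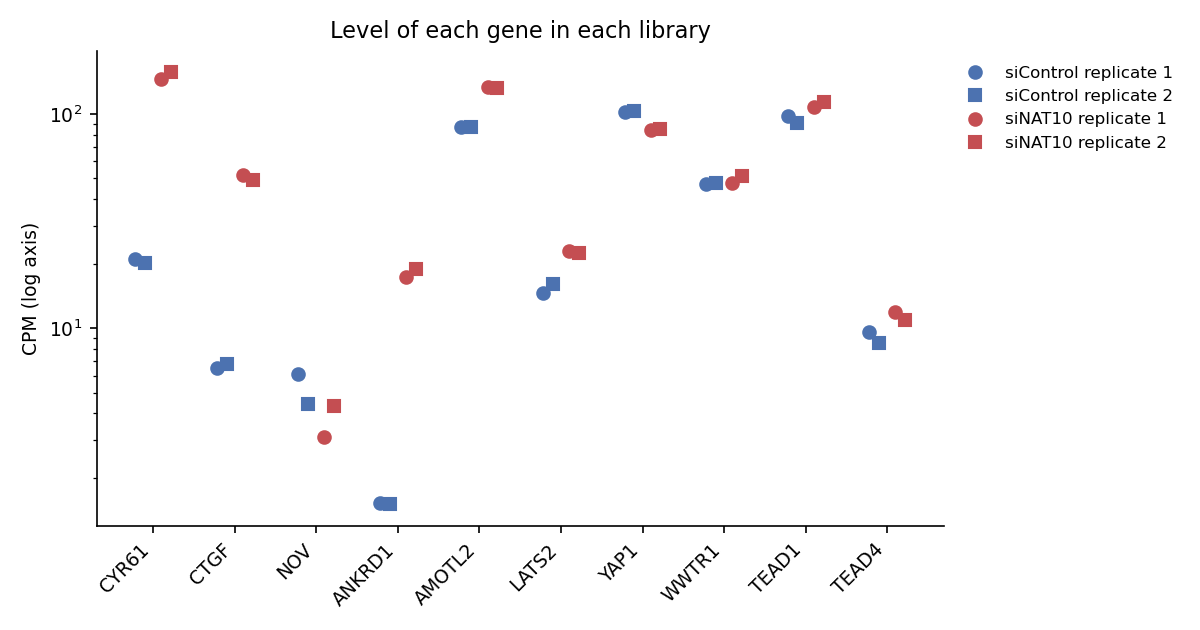
Level of each of the 10 genes in each library, in CPM on a log axis, with blue for siControl, red for the siNAT10-labelled libraries, circles for replicate 1 and squares for replicate 2. CYR61, CTGF and ANKRD1 are far apart between the groups, AMOTL2 and LATS2 less so, and only WWTR1 overlaps.

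AMOTL2, an angiomotin that binds YAP and holds it at junctions and actin, and LATS2, the kinase that inhibits YAP, are both targets and inhibitors of the pathway. AMOTL2 (chromosome 3, 134355874 to 134375479, minus strand) was at 86.7 and 87.2 CPM in siControl and at 133 CPM in both siNAT10-labelled libraries. The replicates nearly coincided and the groups were well apart, with a mean 1.53 times as high and a log2 difference of 0.61 ± 0.07. The pseudogene row RPL39P5, with at most 16 counts in a library, shares exon sequence with it. LATS2 (chromosome 13, 20973032 to 21061547, minus strand) was at 14.6 and 16.1 CPM in siControl and at 23.0 and 22.5 CPM in the siNAT10-labelled libraries, without overlap. Its mean was 1.48 times as high, a log2 difference of 0.57 ± 0.10.

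Their tested relatives AMOTL1 and LATS1 lay the other way, though the LATS1 fall was not called under every setting. AMOTL1, another angiomotin, fell from 289 and 283 CPM to 237 and 229 CPM (log2 fold change -0.30 ± 0.06, edgeR adjusted p = 0.000943), and it overlaps the opposite-strand row RP11-856F16.2. AMOTL1 was 1.99 and 1.94 times the level of AMOTL2 per kb in siControl and 1.06 and 1.03 times in the siNAT10-labelled libraries. AMOT was at 0.11 CPM or less in every library and was not tested. LATS1, named after its values were seen and overlapping AL358852.1, fell from 13.0 and 12.4 CPM to 10.9 and 8.33 CPM (log2 fold change -0.39 ± 0.13, edgeR adjusted p = 0.0207). The value was -0.60 without siNAT10 replicate 1, and the call was lost without siNAT10 replicate 2 (-0.22, edgeR adjusted p = 0.285) and with DESeq2 (adjusted p = 0.110). The level of LATS2 per kb was 1.75 and 2.01 times that of LATS1 in siControl and 3.27 and 4.19 times in the siNAT10-labelled libraries.

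The co-activators themselves differed little. YAP1 (chromosome 11, 102110461 to 102233423, plus strand) was at 102 and 103 CPM in siControl and at 83.6 and 85.0 CPM in the siNAT10-labelled libraries. Both of the latter were below both siControl libraries, by a log2 difference of -0.28 ± 0.07, a siControl mean 1.22 times as high. Its exons overlap those of the opposite-strand row RP11-864G5.3, which had 387, 383, 303 and 239 counts where YAP1 had 3905, 3823, 2896 and 2510. WWTR1 (chromosome 3, 149517235 to 149736714, minus strand) was at 47.2 and 47.8 CPM in siControl and at 47.7 and 51.5 CPM in the siNAT10-labelled libraries. The groups overlapped, with a log2 difference of 0.06 ± 0.08 and a 95% interval from -0.097 to 0.22, and the sign turned with libraries scaled by their totals (-0.05). WWTR1 overlaps the opposite-strand row WWTR1-AS1. Per kb, YAP1 and WWTR1 summed to 21.89 and 22.02 CPM per kb in siControl and 19.0 and 19.6 in the siNAT10-labelled libraries, and YAP1 was 2.90 and 2.88 times WWTR1 in the former and 2.34 and 2.21 times in the latter. Thus the targets CYR61, CTGF and ANKRD1 were higher in libraries where the summed mRNA of their co-activators was slightly lower; these counts hold no measure of YAP or TAZ protein, phosphorylation or location.

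TEAD1 and TEAD4, which encode the DNA-binding partners, were slightly higher. TEAD1 (chromosome 11, 12674591 to 12944483, plus strand) was at 98.0 and 90.8 CPM in siControl and at 108 and 114 CPM in the siNAT10-labelled libraries. The groups did not overlap, and the log2 difference of 0.23 ± 0.07 was 0.12 with libraries scaled by their totals. TEAD4 (chromosome 12, 2959330 to 3040673, plus strand) was at 9.55 and 8.51 CPM in siControl and at 11.9 and 10.9 CPM in the siNAT10-labelled libraries, also without overlap, a log2 difference of 0.34 ± 0.12.

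The paralogs TEAD2 and TEAD3 did not pass the test. TEAD2, whose exons overlap those of CD37, had a log2 value of -0.0074 ± 0.13 (edgeR adjusted p = 0.971, 95% interval from -0.27 to 0.26). TEAD3 had a log2 value of -0.06 ± 0.10 (edgeR adjusted p = 0.67, 95% interval from -0.27 to 0.15). The 4 TEAD genes summed to 22.2 and 21.9 CPM per kb in siControl and to 24.3 and 24.6 in the siNAT10-labelled libraries, of which TEAD1 made up 43.0% and 40.3%, and 43.20% and 45.02%. Among the Vestigial-like (VGLL) cofactors, which compete with YAP and TAZ for TEAD, VGLL3 rose from 8.82 and 7.83 CPM to 13.9 and 15.5 CPM (log2 fold change 0.82 ± 0.12, edgeR adjusted p = 2.1e-05). VGLL4, which represses TEAD targets and overlaps ATG7 and RP11-169K17.4, was at 6.59 and 6.81 CPM against 5.95 and 6.87 CPM (edgeR adjusted p = 0.751). VGLL1 and VGLL2 were at 0.34 CPM or less in every library and were not tested.

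**Figure D3:**
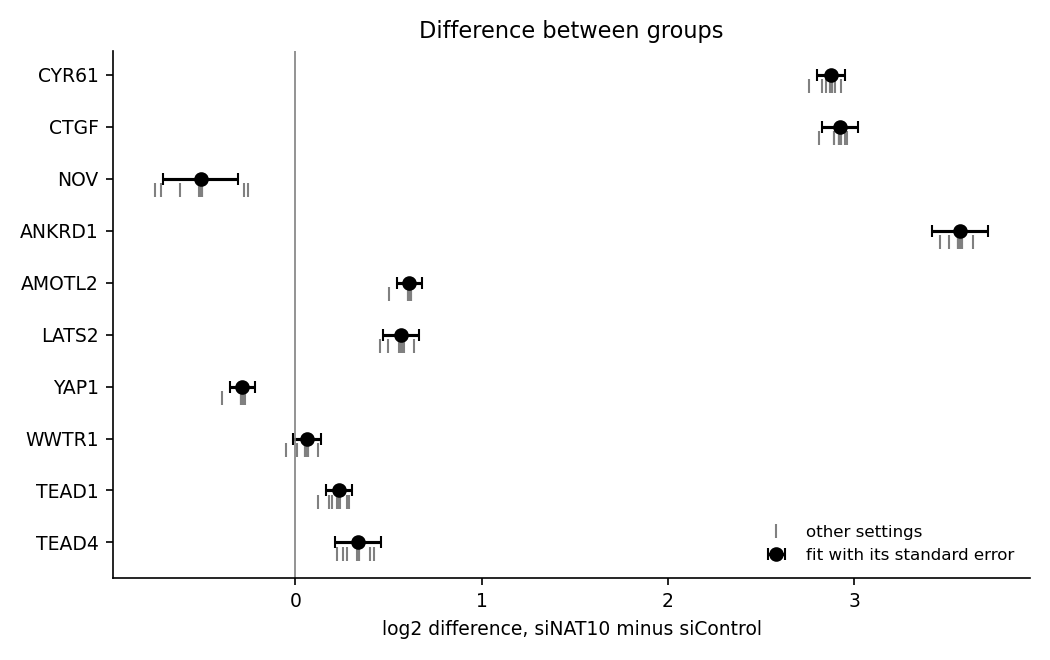
Log2 difference of each gene, siNAT10 minus siControl, as a black point with its standard error (n = 2 per group), with grey ticks for the value under each of 11 other settings. CYR61, CTGF and ANKRD1 lie between 2.88 and 3.57, and the ticks of WWTR1 fall on both sides of 0.

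Levels were ordered per kb of exon length within each group. In siControl the order from the highest was YAP1 (16.3 CPM per kb), AMOTL2 (14.5), TEAD1 (9.18), CYR61 (8.37), WWTR1 (5.65), TEAD4 (3.97), CTGF (2.84), LATS2 (2.75), NOV (1.97) and ANKRD1 (0.77). CTGF and LATS2 overlapped there, and every other pair of neighbours in that order was apart in both libraries. In the siNAT10-labelled libraries the order was CYR61 (61.5), AMOTL2 (22.2), CTGF (21.5), YAP1 (13.4), TEAD1 (10.8), ANKRD1 (9.11), WWTR1 (5.89), TEAD4 (5.02), LATS2 (4.08) and NOV (1.39), with no overlap between neighbours. AMOTL2 and CTGF nearly touched there, at 22.27 and 22.15 against 22.09 and 21.00 CPM per kb, so their order is not firm. CYR61 was thus in the fourth place in one group and the first in the other, and ANKRD1 moved from the last place to the sixth. Lengths are those of all annotated exons of a row, so a gene with many isoforms is given a low level.

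Rows with a pattern like that of the leading members were found by the Euclidean distance between log2 CPM profiles centred on each row's mean over the 4 libraries, among 11980 rows with a mean of at least 5 CPM in a group. GREM1, a secreted antagonist of bone morphogenetic proteins, was nearest to CYR61 (distance 0.12), followed by CTGF (0.15) and MAGEA12 (0.32). CYR61 (0.15), GREM1 (0.17) and the noncoding row RP11-902B17.1 (0.32) were nearest to CTGF. ANKRD1 had RP11-902B17.1 (0.40), GREM1 (0.49) and CTGF (0.60) as its neighbours. GREM1 was at 1.00 and 0.97 CPM in siControl and at 8.20 and 8.87 CPM in the siNAT10-labelled libraries. RP11-902B17.1, which overlaps PRKCH on the other strand, was at 0.47 and 0.57 CPM against 4.91 and 5.69 CPM, and MAGEA12, whose reads cannot be split with certainty from CSAG4 and its near copies, at 2.44 and 2.05 CPM against 13.3 and 14.4 CPM. With 4 libraries in 2 groups, likeness here is mostly the size of the group difference.

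Beyond the members, 17 further genes of the signature of 22 YAP/TAZ targets were tested. Of these, 9 rose, 3 fell and 5 did not pass, beside 19.7% of all tested rows that rose and 20.7% that fell. Their median log2 fold change was 0.29, beside -0.0079 over all rows. TGFB2, a ligand of the transforming growth factor beta family, rose from 5.90 and 5.09 CPM to 17.1 and 18.3 CPM (log2 fold change 1.69 ± 0.12, edgeR adjusted p = 2.79e-09), and it overlaps TGFB2-OT1. CCDC80, which encodes a matrix protein, rose from 79.0 and 78.7 CPM to 171 and 176 CPM (1.13 ± 0.07, edgeR adjusted p = 1.19e-10). IGFBP3, a binding protein of insulin-like growth factors, rose by 0.60 ± 0.07, the receptor tyrosine kinase gene AXL (overlapping CTD-2195B23.3) by 0.44 ± 0.07, the ferlin gene MYOF by 0.42 ± 0.06 and ASAP1, which encodes a GTPase-activating protein for ARF, by 0.35 ± 0.07 (edgeR adjusted p from 2.61e-06 to 0.000309). The 3 that fell, named after their values were seen, were the ectonucleotidase gene NT5E (-0.44 ± 0.08), the guanine nucleotide exchange factor gene DOCK5 (-0.31 ± 0.07) and the tissue factor gene F3 (-0.36 ± 0.10), with edgeR adjusted p of 0.000327, 0.00145 and 0.00557. Only CCDC80 and TGFB2 of the 17 rose at least 2-fold with a call, against 2.74% of all rows.

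A second list of 16 reported YAP/TAZ-TEAD targets went both ways, with 7 rises, 5 falls and 4 that did not pass, beside 19.7% rises and 20.7% falls among all rows. Its median log2 fold change was 0.20. INHBA, the activin A subunit gene, rose from 11.1 and 12.4 CPM to 48.4 and 42.8 CPM (log2 fold change 1.96 ± 0.10, edgeR adjusted p = 1.32e-11). THBS1, which encodes the matricellular protein thrombospondin 1 and overlaps CTD-2033D15.1 and CTD-2033D15.3, rose from 27.2 and 25.9 CPM to 91.9 and 80.2 CPM (1.70 ± 0.08, edgeR adjusted p = 7.19e-12). The mitotic genes CDC20 (1.10 ± 0.09) and BIRC5 (0.77 ± 0.07) rose as well, with edgeR adjusted p of 5.37e-09 and 1.02e-07. AREG, the EGFR ligand amphiregulin and a reported YAP target, fell instead, from 50.1 and 49.3 CPM to 18.9 and 21.5 CPM (-1.30 ± 0.09, edgeR adjusted p = 7.96e-10). TNFRSF12A, the TWEAK receptor gene, which overlaps CLDN6, fell by 0.61 on the log2 scale (edgeR adjusted p = 0.00029). The other falls, named after their values were seen, were MYC (-0.29 ± 0.07, edgeR adjusted p = 0.00176), the LIM protein gene AJUBA (-0.37 ± 0.08, edgeR adjusted p = 0.00156) and the phosphatase gene DUSP1 (-0.37 ± 0.13, edgeR adjusted p = 0.0406). Lists can share genes, so their counts are not independent of each other. AJUBA is also counted among the falls of the Hippo kinases, scaffolds and upstream regulators, and a gene that rose here is counted in another list as well. The DUSP1 value was -0.58 without siControl replicate 1, and its call was lost without siControl replicate 2 (-0.13, edgeR adjusted p = 0.337) and without siNAT10 replicate 2 (-0.26, edgeR adjusted p = 0.222).

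Among 34 tested Hippo kinases, scaffolds and upstream regulators, 10 rose, 11 fell and 13 did not pass, beside 19.7% and 20.7% of all rows. The median log2 fold change was -0.0034, and scaling by library totals gave 4 rises and 14 falls. NF2, which encodes the scaffold merlin that activates LATS kinases at the membrane, rose from 33.3 and 31.9 CPM to 61.0 and 64.9 CPM (log2 fold change 0.95 ± 0.08, edgeR adjusted p = 1.04e-08). STK3, the kinase MST2, which overlaps KB-1517D11.4, rose from 35.7 and 33.7 CPM to 55.5 and 54.4 CPM (0.66 ± 0.08, edgeR adjusted p = 1.09e-06). WWC1, the scaffold KIBRA, rose by 0.41 ± 0.07 (edgeR adjusted p = 4.81e-05). MAP4K4, a kinase that acts in parallel to MST1 and MST2 on the LATS kinases, fell from 597 and 625 CPM to 321 and 306 CPM (-0.96 ± 0.06, edgeR adjusted p = 7.52e-10). The atypical cadherin gene FAT1 and the KIBRA relative WWC3 fell, with log2 values of -0.56 ± 0.07 and -0.47 ± 0.08 (edgeR adjusted p = 3.63e-06 and 6.52e-05). Chosen after their values were seen, STK4 (MST1) was at a log2 value of -0.04 ± 0.07 (edgeR adjusted p = 0.656) and the adaptor gene SAV1 rose by 0.44 ± 0.11 (edgeR adjusted p = 0.00275), a call lost without siNAT10 replicate 1 (0.32, edgeR adjusted p = 0.0636). The count of rises was 3 without siNAT10 replicate 1 and 6 without siNAT10 replicate 2, and that of falls was 6 without siNAT10 replicate 2.

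A list of 14 retention and degradation genes of the pathway was read, including ubiquitin ligase genes whose targets need not be YAP and TAZ. Of these 14, 8 rose, 1 fell and 5 did not pass, beside 19.7% of all rows higher and 20.7% lower. Their median log2 fold change was 0.21. The 14-3-3 genes YWHAE (0.51 ± 0.06), YWHAZ (0.38 ± 0.06), YWHAB (0.34 ± 0.06), YWHAQ (0.28 ± 0.07) and YWHAH (0.25 ± 0.08) and BTRC (0.30 ± 0.07), which encodes a substrate receptor of the ubiquitin ligase for YAP and TAZ, rose (edgeR adjusted p from 2.14e-06 to 0.0167). With libraries scaled by their totals 4 of the 14 rose, and YWHAQ (edgeR adjusted p = 0.0606) and YWHAH (edgeR adjusted p = 0.171) no longer passed. Without siNAT10 replicate 2, 5 rose. YWHAH, which overlaps C22orf24, was also lost without siControl replicate 1 (0.15, edgeR adjusted p = 0.134) and without siNAT10 replicate 2 (0.20, edgeR adjusted p = 0.157). The gene that fell, named after its value was seen, was the ubiquitin ligase gene ITCH (-0.19 ± 0.07, edgeR adjusted p = 0.0476). That call was lost without siControl replicate 1 (log2 value -0.12), siNAT10 replicate 1 (-0.19) or siNAT10 replicate 2 (-0.18). It was also lost with DESeq2 (adjusted p = 0.131), under RLE scaling (edgeR adjusted p = 0.0559) and with a replicate block (edgeR adjusted p = 0.0615).

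Of 8 receptors through which CCN proteins signal, ITGB3 rose, ITGA5, LRP6, ITGA6 and LRP1 fell and 3 did not pass, beside 19.7% of all rows that rose and 20.7% that fell. The median log2 fold change of the 8 was -0.22. The fibronectin receptor subunit gene ITGA5, which overlaps RP11-753H16.5, fell from 114 and 111 CPM to 59.1 and 66.0 CPM (log2 fold change -0.85 ± 0.07, edgeR adjusted p = 2.11e-08). LRP6, a Wnt co-receptor that CTGF and CYR61 have been reported to bind, fell by 0.52 on the log2 scale (edgeR adjusted p = 8.52e-06), and ITGA6, which overlaps AC078883.3, AC078883.4 and AC093818.1, by 0.34 (edgeR adjusted p = 0.000561). LRP1, a scavenger receptor for CTGF that overlaps LRP1-AS and STAT6, fell by 0.27 (edgeR adjusted p = 0.00228), which was lost without siNAT10 replicate 1 (-0.23, edgeR adjusted p = 0.0699). ITGB3 was low, at 1.26 and 0.70 CPM against 2.14 and 1.96 CPM (1.06 ± 0.31, edgeR adjusted p = 0.00927), overlaps RP11-290H9.2, and was lost without siControl replicate 2 (0.70, edgeR adjusted p = 0.120) and with DESeq2 (adjusted p = 0.0841). ITGAV (-0.16 ± 0.08), ITGB5 (0.04 ± 0.06) and ITGB1 (0.08 ± 0.06) did not pass (edgeR adjusted p = 0.111, 0.648 and 0.323), with ITGAV passing when libraries were scaled by their totals (-0.27, edgeR adjusted p = 0.0096) and ITGB5 and ITGB1 turning to -0.07 and -0.03 there.

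CYR61 and CTGF are also targets of SRF and its actin-sensing co-activators, so SRF, its co-activators and cytoskeletal targets were listed. Of 18 tested, 9 rose, 1 fell and 8 did not pass, beside 19.7% rises and 20.7% falls over all rows, and the median log2 fold change was 0.31. The actin genes ACTB and ACTG1 rose from 748 and 753 CPM to 1660 and 1699 CPM (log2 fold change 1.16 ± 0.06, edgeR adjusted p = 3.18e-11) and by 0.81 ± 0.06 (edgeR adjusted p = 6.93e-09). The actin-binding genes CALD1 (0.77 ± 0.06) and TPM2 (0.70 ± 0.06), the myosin light chain gene MYL9 (0.60 ± 0.08) and TPM1 (0.47 ± 0.07, overlapping RP11-244F12.2 and RP11-244F12.3) rose too, with edgeR adjusted p from 1.04e-08 to 1.18e-05. The 8 that did not pass, named after their values were seen, lay both ways. ACTA2 (-0.69 ± 0.29, edgeR adjusted p = 0.063), TAGLN (-0.51 ± 0.24, edgeR adjusted p = 0.101), FHL1 (-0.18) and FLNA (-0.04) had negative log2 values. CNN2 (0.17), VCL (0.15), TPM4 (0.08) and FHL2 (0.07) had positive ones. ACTA2 and TAGLN were low, at 4.07 CPM or less in every library. Actin and tropomyosin genes have near-identical copies, so their reads are assigned with some uncertainty. Named after their values were seen, SRF rose from 25.1 and 27.3 CPM to 38.6 and 39.0 CPM (0.57 ± 0.08, edgeR adjusted p = 2.3e-05). Its 2 listed co-activator genes went opposite ways. MKL1, which overlaps SGSM3, rose from 16.6 and 15.6 CPM to 21.3 and 23.0 CPM (0.46 ± 0.10, edgeR adjusted p = 0.000861), and MKL2, which overlaps TVP23CP2, fell from 30.8 and 28.3 CPM to 20.01 and 19.02 CPM (-0.60 ± 0.09, edgeR adjusted p = 3.31e-05). Falls numbered 2 without siControl replicate 2. The plot of the pathway by list sets these groups beside each other.

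**Figure D4:**
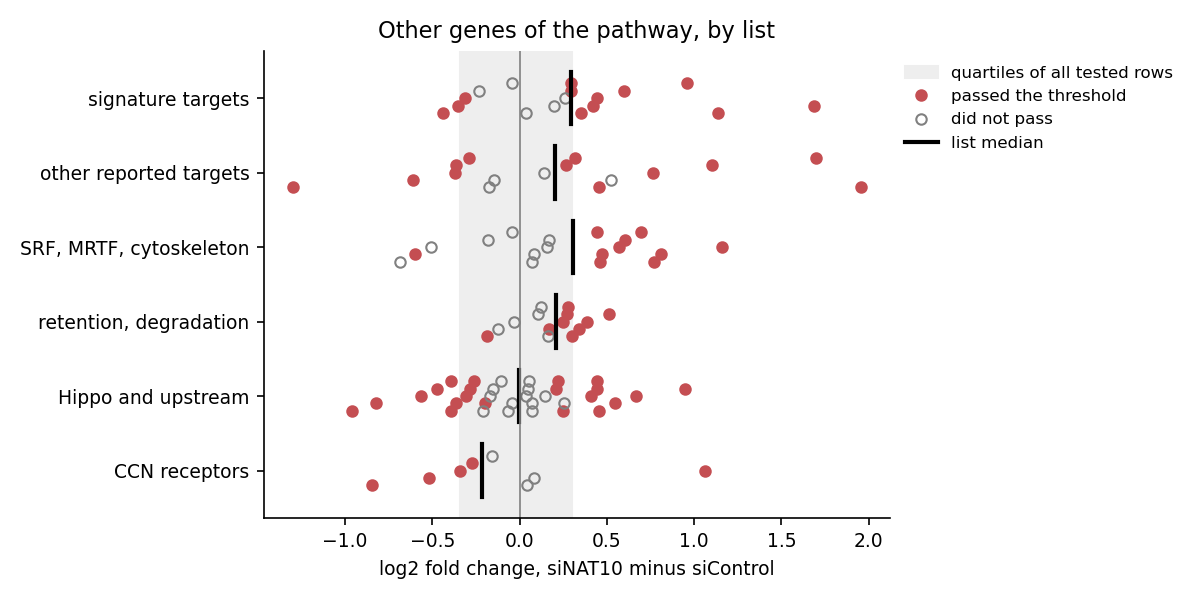
Log2 fold change (siNAT10 minus siControl) of every tested non-member gene in 6 lists, filled where the edgeR adjusted p was under 0.05, with a black bar at each list's median and a grey band from the lower to the upper quartile of all 20098 tested rows (-0.34 to 0.30). The medians run from -0.22 for the CCN receptors to 0.31 for the SRF list.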

How the data were processed

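The authors deposited 1 table of raw counts for 35767 gene rows, with exon positions and lengths in bases. Per the submitters' processing notes, fastp 0.23.4, STAR 2.5.3a, featureCounts and GRCh38 were used, and no annotation release, strand setting or removal of PCR copies was found there. Between 72.0% and 73.5% of counts from 1 to 50 were even numbers, as when both mates of a pair are counted, so a count may not be 1 molecule. Groups and replicate numbers came from sample titles.

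Counts were tested in R 4.3.3 with edgeR 4.0.16 (filterByExpr by group, TMM, glmQLFit with robust shrinkage, glmQLFTest, two-sided, group only), with Benjamini-Hochberg adjustment over 20098 rows and a threshold of 0.05. A standard error is the log2 fold change divided by the root of its F statistic. CPM are on TMM-scaled library sizes. Libraries of a group differed beyond sampling noise (chi-square per degree of freedom 7.94 for siControl, 4.77 for siNAT10), so none was a repeat deposit. Alternatives were DESeq2 1.42.0, RLE and total scaling, other count filters, halved counts, each library left out and a replicate block.

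The members and lists were chosen with earlier results of these data known. Lists were read without the members, except in the motif counts. Of lists of up to 8 genes every gene was named, and of longer ones up to 6 called genes with the smallest adjusted p. For each of CYR61, CTGF and ANKRD1 the 3 nearest rows were named, with 0.1 CPM added before the log. Exceptions are marked in the text. Markers without a row in the table (4) were not analysed here. Promoter windows are from RefSeq (GRCh38.p14) and were matched by symbol.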

Additional observations from a re-analysis of the deposited data

How the results depend on the processing

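Over the 11 alternatives no member except WWTR1 changed sign. ANKRD1 ranged from 3.46 to 3.64 (log2), CTGF from 2.81 to 2.96, CYR61 from 2.76 to 2.93, AMOTL2 from 0.50 to 0.62, LATS2 from 0.46 to 0.64, YAP1 from -0.40 to -0.27 and NOV from -0.75 to -0.26. TEAD1 ranged from 0.12 to 0.29 and TEAD4 from 0.23 to 0.42. Scaling by library totals turned the log2 values of WWTR1 (-0.0502), ITGB5 (-0.0699), ITGB1 (-0.0291) and NAT10 (-0.0241). That scaling left 5 members called higher, where the main fit called 7. It gave 4 rises and 14 falls among the Hippo genes, 4 rises and 2 falls among the retention and degradation genes and 3 falls in the SRF list. DESeq2 called 2840 rows higher and 2771 lower over the whole table (3951 and 4169 with edgeR), 6 members higher and 1 lower, 6 Hippo genes higher and 7 lower, and 0 retention genes lower. Under RLE scaling 1 member and 0 retention genes were called lower. A filter of at least 50 counts and halved counts each gave 2 falls in the SRF list. Leaving out 1 library at a time gave 1 to 2 members lower, 3 to 8 rises and 6 to 11 falls of Hippo genes, 5 to 7 rises and 0 to 1 falls of retention genes, and 1 to 2 falls in the SRF list. TEAD2 then ranged from -0.12 to 0.111 and VGLL4 from -0.169 to 0.042. The cause of these changes was not tested. With 1 library left in an arm, that library is assumed to vary like the others. Replicates of the same number did not deviate together (correlation -0.0189), and the fit with a replicate block gave 3997 rises and 4257 falls and 0 retention genes lower. For named genes outside the members, 755 of 789 values kept direction and side of the threshold, 26 lost the call, 2 gained it and 6 turned. Depth limits the values of genes with few counts, such as ANKRD2 with 6, VWF with 2 and ITGB3 with 26 in their lowest library.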
